A study of Brachypodium distachyon with 6 samples.

Results

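Cellulose synthases of the secondary and the primary cell wall were described in roots of Brachypodium distachyon, a small grass used as a model for cereals, after treatment with a synthetic auxin. The genes were chosen by locus: CESA4 (Bradi3g28350), CESA7 (Bradi4g30540) and CESA8 (Bradi2g49912) for the secondary wall, and CESA1 (Bradi2g34240), CESA3 (Bradi1g54250) and CESA6 (Bradi1g53207) for the primary wall. All 6 loci were present, each with 1 annotated transcript, so 6 of the 42868 transcripts of 31694 loci in the counts were members. All 6 passed the expression filter.

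Cellulose is spun at the plasma membrane by rosette complexes that combine different CESA catalytic subunits. One set of subunits serves the thin primary wall of growing cells, and another serves the thick secondary wall that xylem vessels and fibres lay down after growth. In Arabidopsis, loss of a secondary wall subunit collapses xylem vessels, and in Brachypodium lowered CESA4 or CESA7 expression gives abnormal walls. The gene names and wall classes are those given with the choice of loci. The files carry no gene names.

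The treated group was 3 libraries from plants of reference line Bd21. After 7 days on low-nitrogen medium these plants spent 1 h in a 50 µM solution of 2,4-D (2,4-dichlorophenoxyacetic acid). Their roots carried nodule-like structures when RNA was extracted 7 days later. The control group was 3 libraries of untreated Bd21 roots taken at the same time. The labels do not say whether control plants were soaked without hormone. They name the treated source as nodule-like structures while the protocol speaks of roots that contain them, so the share of root tissue is not given. The term 2,4-D roots below stands for this treated material, whatever its share of root tissue. Replicates were biological, per the series' design text.

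Total counts ranged from 13036151 to 13812253 in 2,4-D libraries and from 12528548 to 14146109 in untreated libraries. Marker genes of root tissue or of particular cell types could not be checked, because none of the loci matched the reference gene table. In these bulk samples, fewer cells of a type and less RNA per cell cannot be told apart.

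The annotated gene structures are shown first. The choice of loci did not use exon lengths, but it took genes of the same family, so shared lengths are a description only. Positions are those of annotation version 2.1. CESA4 lies on chromosome 3 (29710437 to 29714422, plus strand) and has 6 exons. CESA7 lies on chromosome 4 (36375388 to 36380191, plus strand) with 12 exons, and CESA8 on chromosome 2 (49947879 to 49953540, plus strand) with 13. CESA1 lies on chromosome 2 (34303699 to 34309715, plus strand) with 14 exons. CESA3 and CESA6 lie on chromosome 1, CESA3 at 52876570 to 52882275 on the plus strand with 15 exons and CESA6 at 51820263 to 51825925 on the minus strand with 13. No other annotated transcript overlapped any member on either strand, so the missing strand setting in the counting could not add reads of an annotated antisense transcript to them.

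The exon before the last was 351 bp long in CESA4, CESA1, CESA3 and CESA6 and 354 bp long in CESA7 and CESA8. An exon of either length stood at that place in 38 of all loci, the members included, a count made for lengths first seen in the members. In the primary wall genes, a run of 5 consecutive internal exons had identical lengths of 267, 346, 138, 126 and 213 bp. CESA8 differed from this run in its second exon, which had 343 bp. In CESA7 an exon of 264 bp stood in the place of the exons of 138 and 126 bp, whose lengths add up to 264. CESA4 had a single exon of 1657 bp before its exon of 351 bp.

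**Figure D1:**
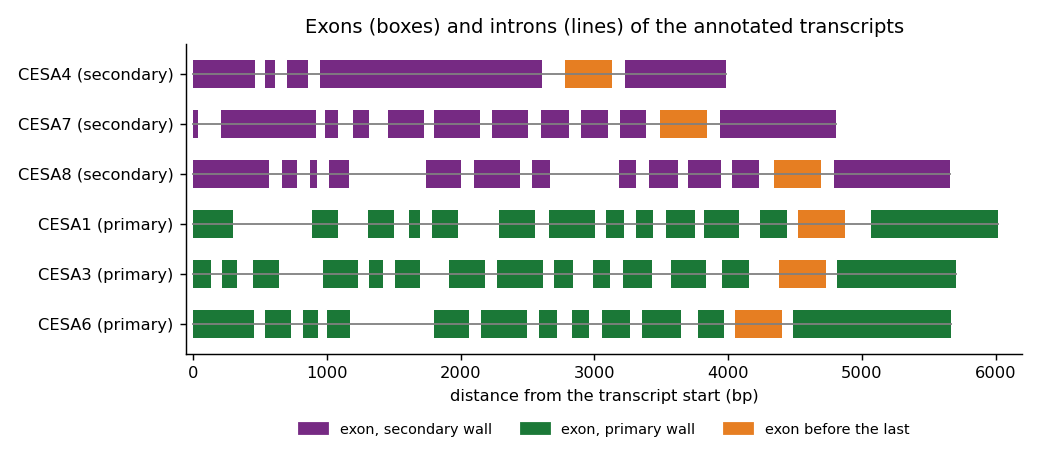
Exons (boxes) and introns (lines) of the 6 annotated transcripts by distance from the transcript start in bp, with the exon before the last in orange. CESA4, with 6 exons, has an exon of 1657 bp where the other genes have a series of short exons.

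No cellulose synthase was called changed by 2,4-D (0 of 6 members at a Benjamini-Hochberg adjusted p under 0.05 in edgeR's quasi-likelihood test), where 2.18% of the 20061 tested transcripts were called. At an unadjusted p under 0.05 there were also 0 of 6, against 19.4% of tested transcripts. The DESeq2 Wald test called 0 of 6 (11.6% of tested transcripts) and limma voom 0 of 6 (2.64%). The values of the groups overlapped for each of the 6, where 26.8% of tested transcripts had groups that did not overlap. Levels are given first in CPM, counts per 1000000 counted fragments of the library, and then per length where genes are compared with each other.

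CESA8 had 133.6, 130.2 and 254.0 CPM in 2,4-D replicates 1, 2 and 3, against 515.5, 191.6 and 154.6 CPM in untreated replicates 1, 2 and 3. The highest treated library lay above both of the lower untreated ones, and the highest value of all was untreated replicate 1. CESA8 averaged 172.6 ± 70.5 CPM in 2,4-D roots and 287.2 ± 198.6 CPM in untreated roots (SD, n = 3 each). Its log2 fold change was -0.84 (SE 0.55, 95% interval -2.15 to 0.47, edgeR adjusted p = 0.442).

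CESA7 had 100.9, 103.5 and 206.5 CPM in 2,4-D replicates 1, 2 and 3, against 410.7, 138.1 and 153.0 CPM in untreated replicates 1, 2 and 3. As for CESA8, 2,4-D replicate 3 reached above the lower untreated libraries and untreated replicate 1 was highest. CESA7 averaged 136.9 ± 60.3 CPM in 2,4-D roots and 233.9 ± 153.3 CPM in untreated roots (SD, n = 3 each). Its log2 fold change was -0.87 (SE 0.54, 95% interval -2.15 to 0.41, edgeR adjusted p = 0.416).

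CESA4 had 73.3, 67.9 and 174.6 CPM in 2,4-D replicates 1, 2 and 3, against 194.7, 76.8 and 82.4 CPM in untreated replicates 1, 2 and 3. Each group held 1 high library and a pair of low ones. CESA4 averaged 105.3 ± 60.1 CPM in 2,4-D roots and 117.95 ± 66.5 CPM in untreated roots (SD, n = 3 each). Its log2 fold change was -0.26 (SE 0.54, 95% interval -1.54 to 1.03, edgeR adjusted p = 0.824).

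Among the primary wall genes, CESA1 had 902.5, 1065 and 1419 CPM in 2,4-D replicates 1, 2 and 3, against 1975, 1391 and 739.7 CPM in untreated replicates 1, 2 and 3. The untreated values enclosed all treated ones. CESA1 averaged 1129 ± 264 CPM in 2,4-D roots and 1369 ± 618 CPM in untreated roots (SD, n = 3 each). Its log2 fold change was -0.38 (SE 0.41, 95% interval -1.36 to 0.61, edgeR adjusted p = 0.650).

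CESA3 had 880.4, 1072 and 1350 CPM in 2,4-D replicates 1, 2 and 3, against 2029, 1436 and 875.1 CPM in untreated replicates 1, 2 and 3. Its untreated values likewise enclosed all treated ones. CESA3 averaged 1101 ± 236 CPM in 2,4-D roots and 1447 ± 577 CPM in untreated roots (SD, n = 3 each). Its log2 fold change was -0.49 (SE 0.38, 95% interval -1.39 to 0.40, edgeR adjusted p = 0.508).

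CESA6 had 231.2, 407.0 and 830.8 CPM in 2,4-D replicates 1, 2 and 3, against 776.5, 449.9 and 210.1 CPM in untreated replicates 1, 2 and 3. Both groups spanned nearly the same range, with the highest value in 2,4-D replicate 3. CESA6 averaged 489.7 ± 308 CPM in 2,4-D roots and 478.9 ± 284 CPM in untreated roots (SD, n = 3 each). Its log2 fold change was -0.06 (SE 0.63, 95% interval -1.56 to 1.43, edgeR adjusted p = 0.967).

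**Figure D2:**
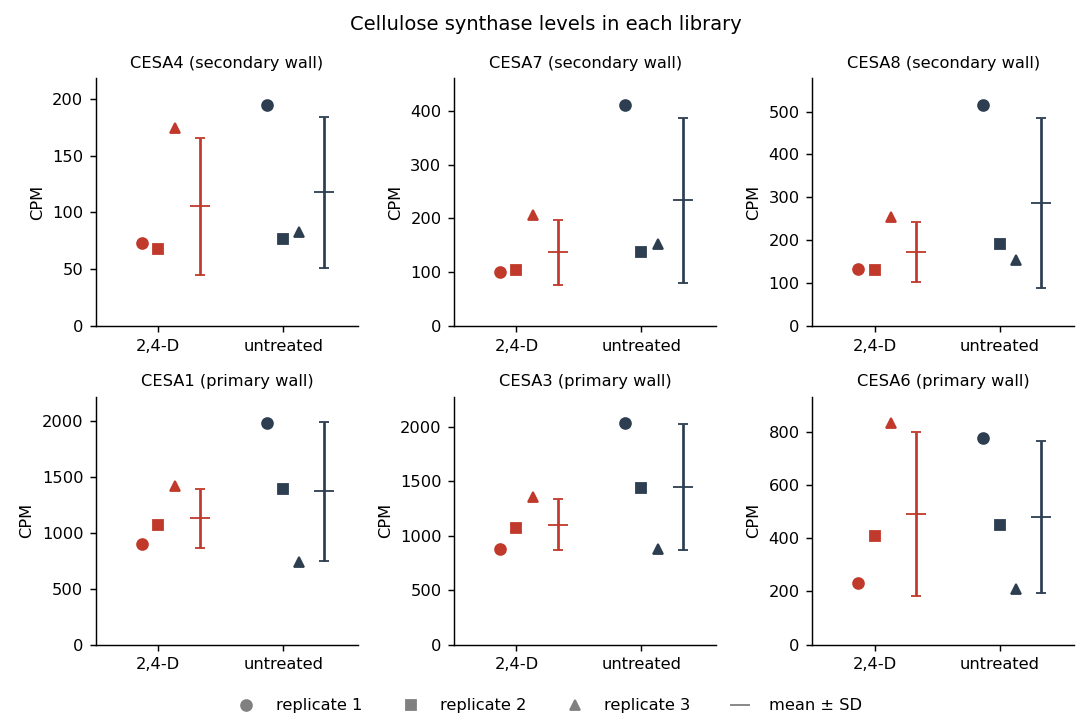
CPM of each cellulose synthase in each library, with 2,4-D libraries left of untreated libraries, a symbol for each replicate number, and the group mean ± SD (n = 3) beside the points. The groups overlap in every panel, and untreated replicate 1 and 2,4-D replicate 3 are the highest libraries of their groups.

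The intervals set what the comparison could show. For CESA7 the fold of 2,4-D over untreated roots lay between 0.225 and 1.33, and for CESA8 between 0.226 and 1.39. For CESA1 it lay between 0.389 and 1.52, for CESA3 between 0.383 and 1.32, for CESA4 between 0.344 and 2.04 and for CESA6 between 0.340 and 2.70. Each interval holds a fold of 1, folds well below it and folds above it. Counting error was small beside this spread. The lowest member count, 938 for CESA4 in 2,4-D replicate 2, gave 67.9 CPM with an exact 95% Poisson interval of 63.6 to 72.4 CPM, which covers counting error only.

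The median log2 fold change was -0.84 over the 3 secondary wall genes and -0.38 over the 3 primary wall genes, against 0.02 over all tested transcripts. The class medians are the values of CESA8 and CESA1. The classes interleaved, since CESA4 (-0.26) lay above CESA1 (-0.38) and CESA3 (-0.49). Over the 4537 tested transcripts with a mean of at least 50 CPM the median was -0.10, and 60.4% of these were below 0. All 6 members had a log2 fold change below 0, but that of CESA6 was 0.03 when libraries were scaled by their totals alone. The values rested on single libraries. Without untreated replicate 1, the log2 fold change was -0.05 for CESA8, -0.13 for CESA7, 0.36 for CESA4, 0.03 for CESA1, -0.13 for CESA3 and 0.52 for CESA6, and edgeR's adjusted p ran from 0.685 to 0.977. Without 2,4-D replicate 3 it was -1.26 for CESA8, -1.33 for CESA7, -0.87 for CESA4, -0.60 for CESA1, -0.69 for CESA3 and -0.72 for CESA6, and edgeR's adjusted p ran from 0.330 to 0.634.

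**Figure D3:**
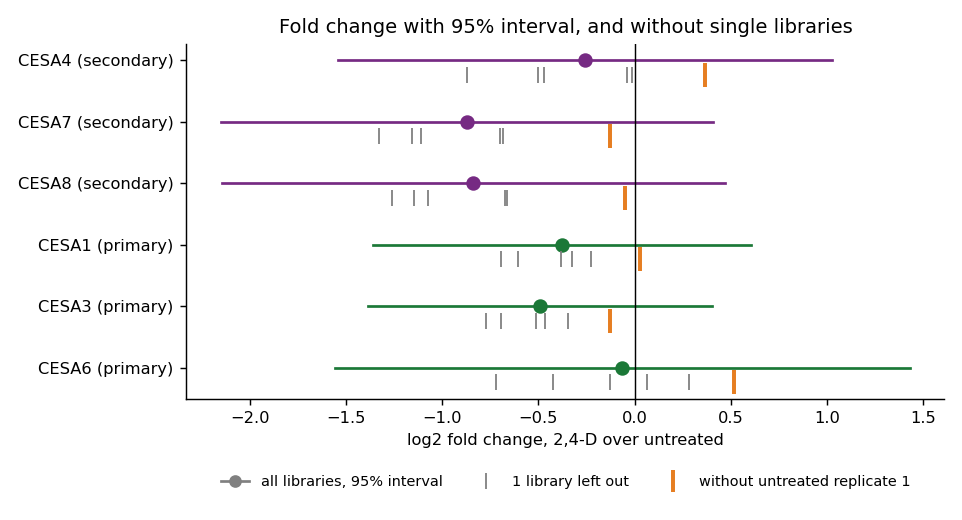
Log2 fold change of 2,4-D over untreated roots for each cellulose synthase (dot) with its 95% interval (line) from edgeR, and below it the values with 1 library left out (ticks), that without untreated replicate 1 in orange. Every interval includes 0, and the orange tick is the highest in each row, from -0.13 to 0.52.

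The members varied together between libraries. All 6 lay above their own mean over the libraries in 2,4-D replicate 3 and in untreated replicate 1, and all 6 lay below it in 2,4-D replicates 1 and 2 and in untreated replicate 3. Deviations on the log2(CPM + 1) scale ran from 0.15 to 0.97 in 2,4-D replicate 3 and from 0.74 to 1.35 in untreated replicate 1. In untreated replicate 2 the 3 secondary wall genes lay below their means (-0.39 to -0.07) and the 3 primary wall genes above them (0.09 to 0.24). The secondary wall genes were also the lower class in 2,4-D replicate 2, at -0.65 to -0.57 against -0.18 to -0.06. They were the higher class in untreated replicate 1 (0.94 to 1.35 against 0.74 to 0.87) and untreated replicate 3 (-0.38 to -0.09 against -1.01 to -0.48). In 2,4-D replicates 1 and 3 the classes interleaved.

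**Figure D4:**
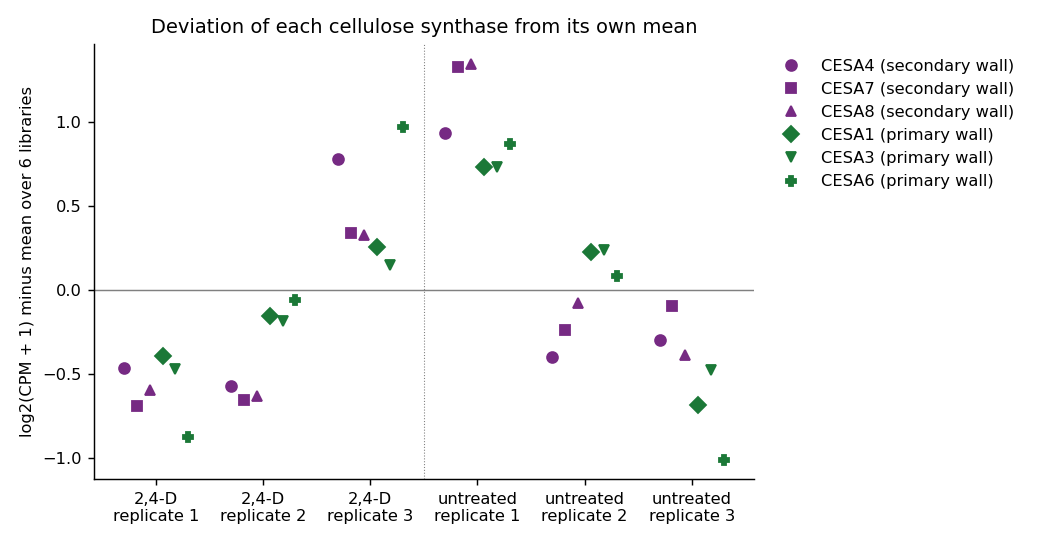
Deviation of log2(CPM + 1) of each cellulose synthase from its own mean over the 6 libraries, for 2,4-D libraries (left of the dotted line) and untreated libraries (right), with secondary wall genes in purple and primary wall genes in green. All 6 genes are above 0 in 2,4-D replicate 3 and untreated replicate 1, and the classes lie on opposite sides of 0 in untreated replicate 2.

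These high libraries had the lowest totals of their groups, 13036151 counts for 2,4-D replicate 3 and 12528548 for untreated replicate 1. The TMM scaling factors were also the lowest of their groups there, 1.00 and 0.926. Members are long transcripts of 3455 to 4028 bp. The 2225 tested transcripts of at least 3000 bp had a median deviation of -0.08 in 2,4-D replicate 3 and -0.02 in untreated replicate 1, against medians of 0.34 and 0.91 over the members. Shorter tested transcripts had a median deviation of 3.98e-05 in 2,4-D replicate 3 and -0.115 in untreated replicate 1, and the 897 long transcripts with a mean of at least 50 CPM had -0.13 in 2,4-D replicate 3 and 0.03 in untreated replicate 1. The part of depth and length in the members' values was not tested.

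Within groups the members spread more than most of the 4537 tested transcripts with a mean of at least 50 CPM, a set not matched to each member's own level. The pooled within-group SD on the log2(CPM + 1) scale was 0.76 for CESA8, 0.74 for CESA7, 0.75 for CESA4, 0.56 for CESA1, 0.48 for CESA3 and 0.93 for CESA6. The median over these transcripts was 0.28. Of them, 95.1% had a smaller SD than CESA6, 90.9% to 91.5% a smaller one than the secondary wall genes, 82.8% a smaller one than CESA1 and 77.7% a smaller one than CESA3.

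Compared per length, the order of levels was nearly fixed. In FPKM, the CPM divided by the exon length in kilobases, CESA4 had 30.5 ± 17.4 in 2,4-D roots and 34.1 ± 19.2 in untreated roots, CESA7 37.3 ± 16.4 and 63.8 ± 41.8, and CESA8 47.4 ± 19.4 and 79.0 ± 54.6 in the same groups (SD, n = 3 each). CESA6 had 121.6 ± 76.5 FPKM in 2,4-D roots and 118.9 ± 70.6 FPKM in untreated roots. CESA3 had 291.0 ± 62.4 FPKM in 2,4-D roots and 382.6 ± 152.6 FPKM in untreated roots, and CESA1 had 296.2 ± 69.3 and 359.1 ± 162.1 FPKM in the same groups.

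CESA4 was the lowest in 6 of 6 libraries, followed upwards by CESA7, CESA8 and CESA6 in 6 of 6, so that every secondary wall gene lay below every primary wall gene within each library. CESA1 and CESA3 held the top of the order in turn, CESA1 in 2,4-D replicates 1 and 3 and CESA3 in the other 4 libraries. Between libraries, neighbours in the order overlapped: the group ranges of CESA4, CESA7 and CESA8 overlapped each other, as did those of CESA8 and CESA6 and those of CESA1 and CESA3. In untreated libraries CESA7 (up to 112.0 FPKM) and CESA4 (up to 56.3 FPKM) also reached above the lowest value of CESA6, 52.2 FPKM. CESA6 reached 206.3 FPKM in 2,4-D libraries, where the lowest value of CESA3 was 232.8 and that of CESA1 236.7 FPKM, and its untreated range, 52.2 to 192.8 FPKM, ended just under the lowest value of CESA1, 194.1 FPKM. By mean FPKM over the 6 libraries, CESA3 ranked 206 and CESA1 220 among all 42868 transcripts, CESA6 892, CESA8 2010, CESA7 2626 and CESA4 4237. Each member is the only transcript of its locus. Counting had no option for fragments in exons shared by several transcripts, so transcripts of other loci may be counted too low and these ranks may be too high.

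Since total depth cancels from a ratio of members within a library, ratios show the balance of the members' transcripts apart from library scaling. Protein was not measured. The FPKM ratio of CESA1 to CESA3, the most abundant pair, was 1.017, 0.986 and 1.043 in 2,4-D replicates 1, 2 and 3, against 0.966, 0.961 and 0.839 in untreated replicates 1, 2 and 3. Over all 6 libraries it moved by no more than 1.24 times, while CESA1 itself moved by 2.67 times among untreated libraries. The ratio of CESA7 to CESA8 ran from 0.749 to 0.806 in 2,4-D libraries and from 0.715 to 0.982 in untreated libraries.

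The ratio of CESA4 to CESA8 ran from 0.549 to 0.724 in 2,4-D libraries and from 0.398 to 0.561 in untreated libraries, an overlap of the groups. The ratio of CESA4 to CESA7 was 0.771, 0.697 and 0.898 in 2,4-D replicates 1, 2 and 3, against 0.503, 0.590 and 0.572 in untreated replicates 1, 2 and 3. All treated ratios thus lay above all untreated ones, with means of 0.789 ± 0.101 in 2,4-D roots and 0.555 ± 0.0459 in untreated roots (SD, n = 3 each). Among ratios within a class, those of CESA6 moved most over the libraries, by 2.29 times against CESA1 and 2.56 times against CESA3. CESA3 had 1.73 times the level of CESA6 in 2,4-D replicate 3 and 4.06 times its level in 2,4-D replicate 1.

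Of the 15 pairs of members, 2 had ratios that did not overlap between the groups, CESA1 to CESA3 and CESA4 to CESA7, both within a class. These pairs were singled out after their values were seen and carry no test. The CPM of single transcripts did not overlap between the groups in 26.8% of tested transcripts, which is another measure than a ratio. The share among ratios of other transcript pairs was not computed, and the 15 pairs reuse the same 6 genes. Of the 9 pairs across the classes none had ratios without overlap, and each of these ratios moved by 2.09 to 2.93 times over the 6 libraries.

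The classes were then compared directly. Secondary wall genes took 13.25% (95% Wilson interval 12.88 to 13.64), 10.6% (10.3 to 10.9) and 15.0% (14.7 to 15.3) of the members' counts in 2,4-D replicates 1, 2 and 3. In untreated replicates 1, 2 and 3 they took 18.99% (18.71 to 19.28), 11.03% (10.77 to 11.30) and 17.61% (17.19 to 18.03). The intervals cover counting error only. The group means were 12.95% ± 2.22 in 2,4-D roots and 15.9% ± 4.25 in untreated roots (SD, n = 3 each), and untreated replicate 2 lay below 2 of the treated libraries.

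On the log2(CPM + 1) scale, the mean of the secondary wall genes minus that of the primary wall genes was -2.65 ± 0.286 in 2,4-D roots and -2.34 ± 0.500 in untreated roots (SD, n = 3 each). The difference of -0.31 between the groups was smaller than the pooled SD of 0.41, and it carries no test because it is a score over chosen genes. It ran from -0.60 without untreated replicate 2 to -0.15 without 2,4-D replicate 2. Summed over the class, secondary wall genes had 414.8 ± 191 CPM in 2,4-D roots and 639.1 ± 417 CPM in untreated roots, and primary wall genes had 2719 ± 807 CPM and 3294 ± 1480 CPM in the same groups (SD, n = 3 each). All 6 members together took 0.232% to 0.424% of counts in 2,4-D libraries and 0.222% to 0.590% in untreated libraries.

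**Figure D5:**
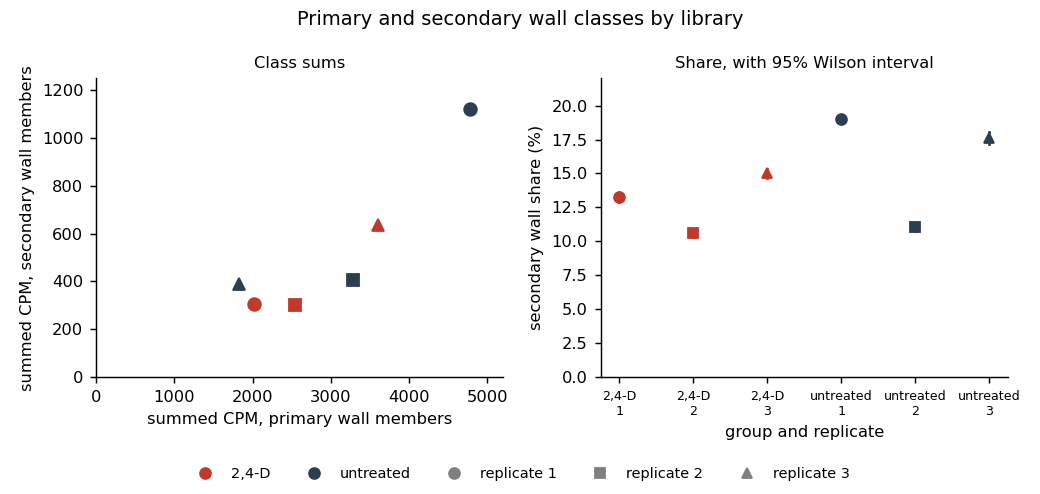
Left, summed CPM of the secondary wall genes against that of the primary wall genes in each library. Right, the share of the members' counts (%) taken by secondary wall genes in each library, 2,4-D libraries first, with 95% Wilson intervals. Untreated replicate 1 is high on both axes, and the shares of the groups, 10.6% to 15.0% in 2,4-D and 11.03% to 18.99% in untreated libraries, overlap.

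Likeness of library profiles was measured as the root mean square difference of centred log2(CPM + 1) over the 6 libraries, among transcripts with a mean of at least 5 CPM. All transcripts were measured in the same 6 libraries, so the distances are a description only. CESA8 was the closest of 13774 transcripts to CESA7, at 0.143, and CESA7 was the 2nd closest to CESA8. CESA4 ranked 9 from CESA7 and 22 from CESA8. CESA1 was the 2nd closest to CESA3, and CESA3 ranked 6 from CESA1. CESA6 stood farther off, ranking 948 from CESA1 and 2453 from CESA3, which was farther than CESA8 from either (801 and 813). CESA4 (1757) and CESA7 (1790) were also closer to CESA3 than CESA6 was, but farther from CESA1 (1317 and 2107). From CESA1 the distances were close, 0.385 for CESA6 and 0.371 for CESA8. Seen from CESA6, the closest members were those of its own class, CESA1 at rank 58 and CESA3 at 132. CESA4 (143), CESA8 (249) and CESA7 (510) followed.

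Among 13769 transcripts other than the members, those closest to the mean secondary wall profile were Bradi1g59880.1 (distance 0.0761), Bradi5g02785.1 (0.081) and Bradi2g17795.1 (0.157). Bradi1g59880.1, with 4 exons on chromosome 1, had 59.0, 62.8 and 121.2 CPM in 2,4-D replicates 1, 2 and 3, against 191.8, 73.5 and 69.0 CPM in untreated replicates 1, 2 and 3. Those closest to the mean primary wall profile were Bradi3g39880.2 (0.0899), Bradi1g66440.1 (0.111) and Bradi4g25140.1 (0.114). Bradi1g66440.1, with 13 exons on chromosome 1, had 705.2, 831.7 and 1243 CPM in 2,4-D replicates 1, 2 and 3, against 1698, 942.9 and 537.1 CPM in untreated replicates 1, 2 and 3. Because these transcripts were picked by this likeness, the same libraries were high and low as for the members. The files give no names for these transcripts.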

How the data were processed

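The authors deposited 1 table of raw counts per transcript. Per the file headers, featureCounts 1.4.3 counted read pairs of 50 to 1000 bp over exons of annotation version 2.1, with transcripts as the unit and no strand or multiple-overlap option. The library kit was strand-specific, per the labels' protocols. The header sets no option to count reads that map to several places. The aligner is not given in the sources used here. CPM is the count over the column sum times 1000000, and FPKM divides it by the deposited exon length.

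The test was edgeR 4.0.16 in R 4.3.3 (TMM, default filter with minimum count 10, robust quasi-likelihood F test) on all transcripts of the 6 libraries, with p-values adjusted by Benjamini-Hochberg over 20061 transcripts. Standard errors come from the fold change and F, and 95% intervals use the test's degrees of freedom. The code was tested on simulated data. DESeq2 1.42.0 and limma 3.58.1 with voom were alternatives, as were other scalings, filters, a replicate block, summing per locus and leaving out each library. No library repeated another of its group (chi-square over transcripts at least 14.0 times its degrees of freedom).

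The members and lists were chosen with earlier results of these data known. Transcripts to name were the members and, by class, the 3 transcripts of most similar profile. Planned lists of other wall, lignin, xylem, cell division and auxin genes, and marker lists of cell types, relied on product descriptions. They could not be applied, since 0 of 31694 loci matched the RefSeq table (assembly 3.0), which has no descriptions. No sequences were used here.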

Additional observations from a re-analysis of the deposited data

How the results depend on the processing

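None of the 6 members was called in any of 14 alternatives each (84 fits, lowest adjusted p 0.205, for CESA3 without untreated replicate 3, its only fit with an unadjusted p under 0.05). Of these fits, 78 had the same sign of the fold change as the reported one. The sign was reversed for CESA6 with library totals (log2 fold change 0.034). With 1 library left out, log2 fold changes ran from -0.72 to 0.52 for CESA6, from -0.69 to 0.026 for CESA1 and from -0.87 to 0.36 for CESA4, with positive values for CESA1 and CESA4 only without untreated replicate 1. CESA6 had positive values when untreated replicate 1 (0.52), 2,4-D replicate 1 (0.28) or 2,4-D replicate 2 (0.06) was left out. The difference between the classes ran from -0.60 to -0.15 and stayed within 1 pooled SD of its reported value in every alternative. Over all transcripts 437 were called, 2328 with the DESeq2 Wald test, 231 with the replicate block and 0 to 370 with 1 library left out; leaving out untreated replicate 2 gave 0, 2,4-D replicate 1 gave 19, untreated replicate 1 gave 72, 2,4-D replicate 2 gave 82 and 2,4-D replicate 3 gave 256. The cause was not tested. Same-numbered libraries did not deviate together in all pairs (correlations of -0.0938, 0.349 and 0.0923), and some were closer to another number. With the replicate block the members' adjusted p ran from 0.501 to 0.967 (edgeR). Each group held 3 libraries, and the lowest member count was 938.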

Other observations

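The run of exon lengths shared by CESA1, CESA3 and CESA6 was searched for in all 42868 transcripts, a search chosen after the structures were seen. It occurred in 3 other loci, Bradi1g02510, Bradi1g04597 and Bradi1g29060, all on chromosome 1. These have 2, 3 and 4 annotated transcripts, which all hold the run. Bradi1g04597 had 11, 16 and 33 counts in 2,4-D replicates 1, 2 and 3, against 8, 23 and 79 counts in untreated replicates 1, 2 and 3, at most 5.59 CPM. Its highest count was that of untreated replicate 3. Bradi1g02510 and Bradi1g29060 are listed at 0 in all libraries. Per the file header, counting had no option for fragments that fall in exons of several transcripts, and these values are not read as levels of the loci.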
